A study of Mus musculus with 93 samples.

Results

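The genes described here are 6 members of the Nodal and activin pathway: the ligand gene Nodal, the activin chain genes Inhbb and Inhba, the coreceptor gene Tdgf1, and the inhibitor genes Lefty1 and Lefty2. They were chosen by name from the 33924 gene names of each RNA count table, and all 6 names were found. The cells were mouse embryonic stem (ES) cells of the R1 line, kept with serum and the cytokine LIF. The series has 93 samples, of which the 12 RNA-seq libraries were used, in 4 groups of 3 replicates. Set 1 held wild type (WT) cells and cells with the genotype Ring1b I53A, a point mutation in the Polycomb protein that attaches ubiquitin to histone H2A. Set 2 held WT cells and cells labelled H1b/c/d/e-QKO, a quadruple knockout of linker histones, the proteins that bind DNA between nucleosomes. The labels name no agent or clone, nor whether the replicates are separate cultures. The p-values therefore reflect the spread among these libraries alone, and that spread may be technical.

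Nodal is a secreted ligand of the TGF-beta family. It binds type I and type II activin receptors together with the membrane-anchored coreceptor Cripto, which Tdgf1 encodes, and the receptors then phosphorylate Smad2 and Smad3, which enter the nucleus with Smad4 and bind DNA with partners such as Foxh1. Activins are dimers of the chains made from Inhba and Inhbb, use the same receptors and need no Cripto. Lefty1 and Lefty2 are secreted inhibitors that bind Nodal or Cripto, and in the embryo their genes are themselves switched on by Nodal signalling. In the early embryo the pathway maintains the epiblast and patterns mesoderm and endoderm, and ES cells make several of its components.

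Nodal, Inhbb and Tdgf1 were the members whose RNA was higher in both mutants, so the 250 bases before the start of each are shown, from RefSeq with the build GRCm38.p6. RefSeq's promoter table matched 4 of the 6 members, Inhba being the other. Capitals mark TGTNNATT, the core bound by Foxh1, and CAGAC, a core bound by SMAD proteins, on either strand. The windows are chr10:61417722-61417971 (plus strand) for Nodal, chr1:119422249-119422498 (minus strand) for Inhbb and chr9:110946159-110946408 (minus strand) for Tdgf1, each printed along the gene's own strand.
Nodal: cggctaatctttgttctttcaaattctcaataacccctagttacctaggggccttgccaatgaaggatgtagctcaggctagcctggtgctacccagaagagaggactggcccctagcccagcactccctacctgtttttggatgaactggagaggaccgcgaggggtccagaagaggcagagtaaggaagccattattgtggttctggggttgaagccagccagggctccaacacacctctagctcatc
Inhbb: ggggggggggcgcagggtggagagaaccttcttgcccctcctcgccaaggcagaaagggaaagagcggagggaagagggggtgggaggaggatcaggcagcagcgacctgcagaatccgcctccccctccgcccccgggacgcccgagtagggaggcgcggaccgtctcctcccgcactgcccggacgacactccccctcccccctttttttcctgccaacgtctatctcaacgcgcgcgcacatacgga
Tdgf1: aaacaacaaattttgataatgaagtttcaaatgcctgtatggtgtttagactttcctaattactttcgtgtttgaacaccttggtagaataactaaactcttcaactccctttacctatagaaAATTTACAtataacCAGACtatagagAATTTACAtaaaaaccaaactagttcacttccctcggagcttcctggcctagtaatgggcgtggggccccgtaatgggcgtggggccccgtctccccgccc
The Tdgf1 window held 2 matches to the Foxh1 core, both as its reverse complement AATNNACA, and 1 match to the SMAD core between them, with no overlap. The windows of Nodal, Inhbb and Inhba held neither. Of 32851 windows of that length in the table, 10.9% held the Foxh1 core and 42.2% the SMAD core, so a match is a description of the letters and not a binding site. The 3 windows also differed in base composition. The CpG content relative to that given by the base composition was 0.170 for Nodal, 0.727 for Inhbb and 0.648 for Tdgf1, against a median of 0.374 over all windows, and the GC content was 53.2%, 68.0% and 42.0%, against a median of 52.4%.

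In the build mm9 that the count tables use, Nodal lies on chromosome 10 (60880720 to 60888086, plus strand), Inhbb on chromosome 1 (121312042 to 121318825, minus strand), Inhba on chromosome 13 (16103684 to 16119044, plus strand) and Tdgf1 on chromosome 9 (110842114 to 110848662, minus strand). Lefty2 (182823239 to 182829234) and Lefty1 (182865153 to 182868531) are neighbours on the plus strand of chromosome 1, separated by 35918 bases. Reads were counted over all exons of a gene, and no other gene in the tables overlaps the span of any of the 6. Lefty1 and Lefty2 are close paralogs, so reads from stretches they share may have been lost or be of uncertain origin. The pseudogene Tdgf1-ps2 had at most 3 counts in any library.

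Library totals ran from 12585621 to 23378930 counts. In set 1, replicate 3 had the lowest total in WT and in I53A and differed most from the other replicates. The difference from them per degree of freedom was 21.2 to 27.3 by chi-square, against 2.19 to 4.41 in the other replicate pairs, all of which also exceeded sampling noise. Its tables follow another naming style, which was treated as a possible batch. Rnf2, which encodes Ring1b, had 2324 to 3427 counts in WT and 1086 to 1771 in I53A, but a point mutation need not change RNA, so this does not check the label. The 4 linker histone genes did not fall in the libraries labelled QKO. Against WT of set 2, Hist1h1b had 53 to 72 counts and WT 2 to 9, and Hist1h1c 129 to 202 and 143 to 205. Hist1h1d had 5 to 15 and 3 to 14, and Hist1h1e 3 to 12 and 0 to 6. WT had so few counts of Hist1h1b, Hist1h1d and Hist1h1e that a fall of these could hardly be seen. RNA counts alone do not check this label either. QKO below therefore means the libraries that carry that label, and directions drawn from them rest on it. Values in CPM are counts scaled to a library of 1000000 with adjustment by the trimmed mean of M-values (TMM), over the 6 libraries of a set unless 12 are named. Group values are means ± SD.

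In I53A cells the ligand and coreceptor genes were higher and the inhibitor genes lower. Nodal rose 1.70-fold, Inhbb 1.73-fold and Tdgf1 1.98-fold, whereas Lefty1 fell 5.06-fold and Lefty2 2.59-fold. Of the 6 members 5 were tested, and edgeR's quasi-likelihood test with Benjamini-Hochberg adjustment over 15536 genes called 3 of them higher and 2 lower, at an adjusted p under 0.05. Over all tested genes 18.1% were called higher and 17.4% lower. The groups did not overlap for any of the 5, as for 49.4% of all tested genes. The median log2 fold change over the 5 tested members, which rose and fell, was that of Nodal, 0.77. Over all genes it was -0.00103.

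Nodal, the ligand, stood at 87.7, 84.7 and 78.5 CPM in WT replicates 1 to 3 and at 151, 145 and 131 CPM in I53A. The lowest I53A library lay well above the highest WT library, and replicate 3 was the lowest in each group. The means were 83.6 ± 4.71 in WT and 142 ± 10.6 in I53A (n = 3), and the log2 fold change was 0.77 ± 0.08 (SE, edgeR adjusted p = 0.000295). Inhbb, which encodes the beta B chain of activin, read 52.1, 54.7 and 52.4 CPM in WT and 93.2, 92.1 and 89.3 CPM in I53A. Its replicates lay close together in both groups, with means of 53.05 ± 1.398 and 91.6 ± 2.02 CPM (log2 fold change 0.79 ± 0.07, edgeR adjusted p = 0.000111). Changes as large as those of Nodal and Inhbb, in either direction, were seen in 19.7% and 19.1% of all tested genes.

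Inhba, which encodes the beta A chain of activin, had 0 counts in all 12 libraries and was not tested. A count of 0 allows up to 3 counts of the total, that is 0.0611 CPM in WT and 0.0621 CPM in I53A over the 3 libraries of set 1, and 0.0522 CPM in WT and 0.0497 CPM in the libraries labelled QKO. These limits cover counting error only. Of the pair of activin beta chain genes, then, Inhbb alone was detected at this depth.

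Tdgf1, the coreceptor gene, had 142, 143 and 143 CPM in the WT libraries of set 1 and 272, 355 and 220.0 CPM in I53A. WT libraries were nearly identical, while the I53A libraries spread widely, all of them above WT. Means were 143 ± 0.681 and 282 ± 67.8 CPM (log2 fold change 0.99 ± 0.16, edgeR adjusted p = 0.00219), and 13.9% of tested genes changed as much. With the replicate number as a block the Tdgf1 call was kept at an adjusted p = 0.0421.

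Lefty1, the first of the inhibitor genes, had 16.5, 14.6 and 16.2 CPM in WT and 2.94, 3.77 and 2.53 CPM in I53A, or 212 to 293 counts against 32 to 67. Every I53A library lay far below every WT library. Means were 15.7 ± 1.02 and 3.08 ± 0.633 CPM, a log2 fold change of -2.34 ± 0.17 (edgeR adjusted p = 4.75e-05), and 3.15% of tested genes changed as much. Lefty2 had 34.4, 34.3 and 40.1 CPM in WT and 11.8, 14.3 and 16.0 CPM in I53A. Here too the groups were clearly apart, with replicate 3 the highest in each. Means were 36.3 ± 3.32 and 14.0 ± 2.16 CPM, a log2 fold change of -1.37 ± 0.14 (edgeR adjusted p = 0.000187), and 8.36% of tested genes changed as much. In bulk RNA, fewer cells that make a transcript and less of it per cell cannot be told apart.

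The libraries labelled QKO moved the same members in the same directions, with small increases and large decreases. Nodal was 1.13-fold, Inhbb 1.33-fold and Tdgf1 1.15-fold higher, and Lefty1 was 2.62-fold and Lefty2 3.64-fold lower. Of the 5 members tested among 15439 genes, 3 were called higher and 2 lower, where 28.7% of all tested genes were called higher and 29.0% lower. The groups did not overlap for any of the 5, as for 61.5% of all genes. The median log2 fold change over the 5 tested members was again that of Nodal, 0.18. Over all genes it was -0.00334.

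Among the ligands, Nodal had 34.1, 32.7 and 35.5 CPM in the WT libraries of set 2 and 39.7, 36.0 and 40.1 CPM in those labelled QKO. The highest WT and the lowest QKO library were nearly level. Means were 34.1 ± 1.39 and 38.6 ± 2.28 CPM (log2 fold change 0.18 ± 0.07, edgeR adjusted p = 0.0194). This call was lost without WT replicate 2 (adjusted p = 0.106), QKO replicate 1 (0.0883) or QKO replicate 3 (0.0959), and in a fit over all 12 libraries (0.0843), and 65.9% of tested genes changed as much. Inhbb had 134, 134 and 146 CPM in WT and 182, 179 and 189 CPM in QKO, with no overlap between the groups. Its means of 138 ± 7.28 and 183 ± 5.19 CPM gave a log2 fold change of 0.41 ± 0.04 (edgeR adjusted p = 2.46e-11), and 37.6% of tested genes changed as much.

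The coreceptor gene Tdgf1 had 1142, 1114 and 1041 CPM in WT and 1247, 1287 and 1269 CPM in the libraries labelled QKO. Every QKO library was above every WT library, by a small margin against a high level. Means were 1099 ± 52.4 and 1268 ± 19.8 CPM (log2 fold change 0.21 ± 0.04, edgeR adjusted p = 5.10e-06). The fit over 12 libraries lost the call at a log2 fold change of 0.20 (edgeR adjusted p = 0.233), and 62.1% of tested genes changed as much.

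Both inhibitor genes fell far more than the ligand genes rose. Lefty1 had 53.3, 49.9 and 60.4 CPM in WT and 20.5, 18.6 and 23.1 CPM in QKO. No library of either group came near the other, with means of 54.5 ± 5.32 and 20.7 ± 2.25 CPM (log2 fold change -1.39 ± 0.08, edgeR adjusted p = 1.89e-20). Lefty2 had 188, 172 and 182 CPM in WT and 51.3, 49.3 and 48.1 CPM in QKO. The libraries of each group agreed closely, with means of 181 ± 7.73 and 49.6 ± 1.61 CPM (log2 fold change -1.87 ± 0.05, edgeR adjusted p = 4.86e-36). Changes as large were seen in 6.87% of tested genes for Lefty1 and 3.80% for Lefty2.

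**Figure D1:**
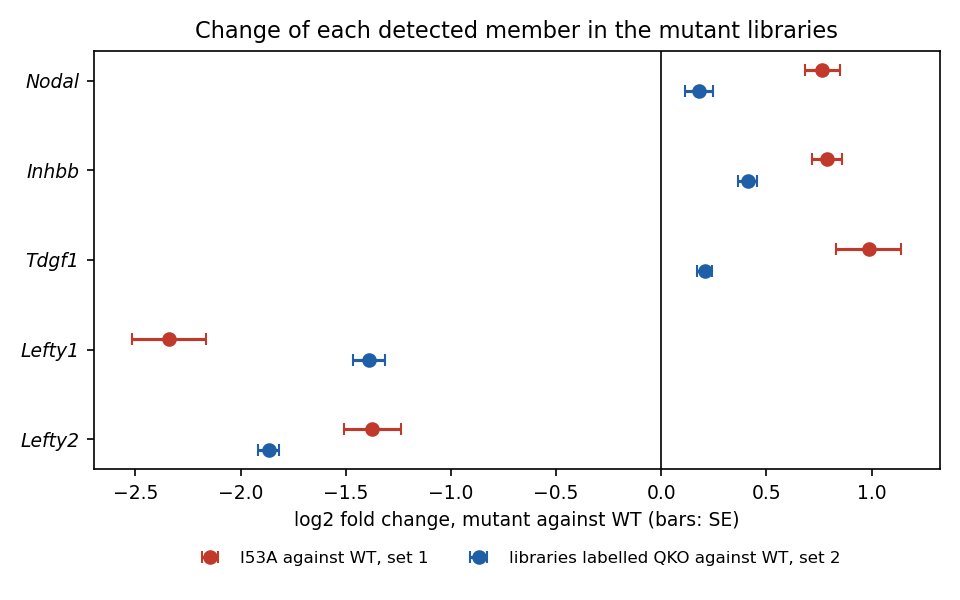
Log2 fold change (x axis, bars are SE) of the 5 tested members (y axis) in I53A against WT and in libraries labelled QKO against WT. Nodal, Inhbb and Tdgf1 lie to the right of 0 and Lefty1 and Lefty2 to the left in both comparisons; Lefty1 fell more in I53A (-2.34 against -1.39) and Lefty2 more in QKO (-1.87 against -1.37).

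The size of the change differed between the mutants for each tested member. The difference, the I53A effect less the QKO effect, was the interaction term of a fit to the 12 libraries, in which 18.0% of 16501 genes were called higher and 18.1% lower. Of the 5 members, 4 had a positive difference and 1 a negative one. Nodal differed by 0.61 ± 0.11 on the log2 scale (edgeR adjusted p = 0.000438), Inhbb by 0.40 ± 0.08 (0.00153) and Tdgf1 by 0.80 ± 0.18 (0.00438), so that each rose more in I53A. The inhibitor genes differed in opposite ways. For Lefty1 the difference was -0.92 ± 0.19 (adjusted p = 0.00141), a deeper fall in I53A, and for Lefty2 it was 0.51 ± 0.13 (adjusted p = 0.00625), a deeper fall in QKO. The mutants were measured in different sets, each against its own WT.

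The WT libraries of the sets differed in these genes by more than most of the mutant effects. With scaling over 12 libraries, Tdgf1 had 134, 135 and 134 CPM in the WT libraries of set 1 and 1204, 1179.6 and 1101 CPM in those of set 2. That is an 8.65-fold higher level in set 2 (log2 difference 3.11 ± 0.14, edgeR adjusted p = 1.81e-09), while I53A changed Tdgf1 1.98-fold. The inhibitor genes were higher in set 2 as well: Lefty1 had 15.5, 13.8 and 15.1 CPM in set 1 and 56.2, 52.9 and 63.9 CPM in set 2 (3.89-fold, log2 difference 1.96 ± 0.12, edgeR adjusted p = 2.05e-09). Lefty2 had 32.5, 32.5 and 37.5 CPM in set 1 and 198, 182 and 193 CPM in set 2 (5.60-fold, log2 difference 2.49 ± 0.09, edgeR adjusted p = 5.21e-12). For these 3 genes the libraries labelled QKO remained above the WT libraries of set 1.

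The ligand genes split between the sets. Inhbb had 49.2, 51.8 and 48.9 CPM in the WT libraries of set 1 and 141, 141 and 155 CPM in set 2 (2.92-fold higher, log2 difference 1.54 ± 0.06, edgeR adjusted p = 9.94e-12). Nodal went the other way, with 82.9, 80.2 and 73.3 CPM in set 1 and 36.0, 34.7 and 37.6 CPM in set 2 (2.18-fold lower, log2 difference -1.13 ± 0.08, edgeR adjusted p = 9.24e-09). In this comparison 4 members were called higher in set 2 and 1 lower, where 28.0% of 16501 genes were called higher and 29.4% lower. The groups did not overlap for any of the 5 members, as for 62.6% of all genes. The names of the alignments also differed between the sets, per the file headers, while the labels give 1 line and 1 medium for all. The part of the alignment in these differences was not tested.

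**Figure D2:**
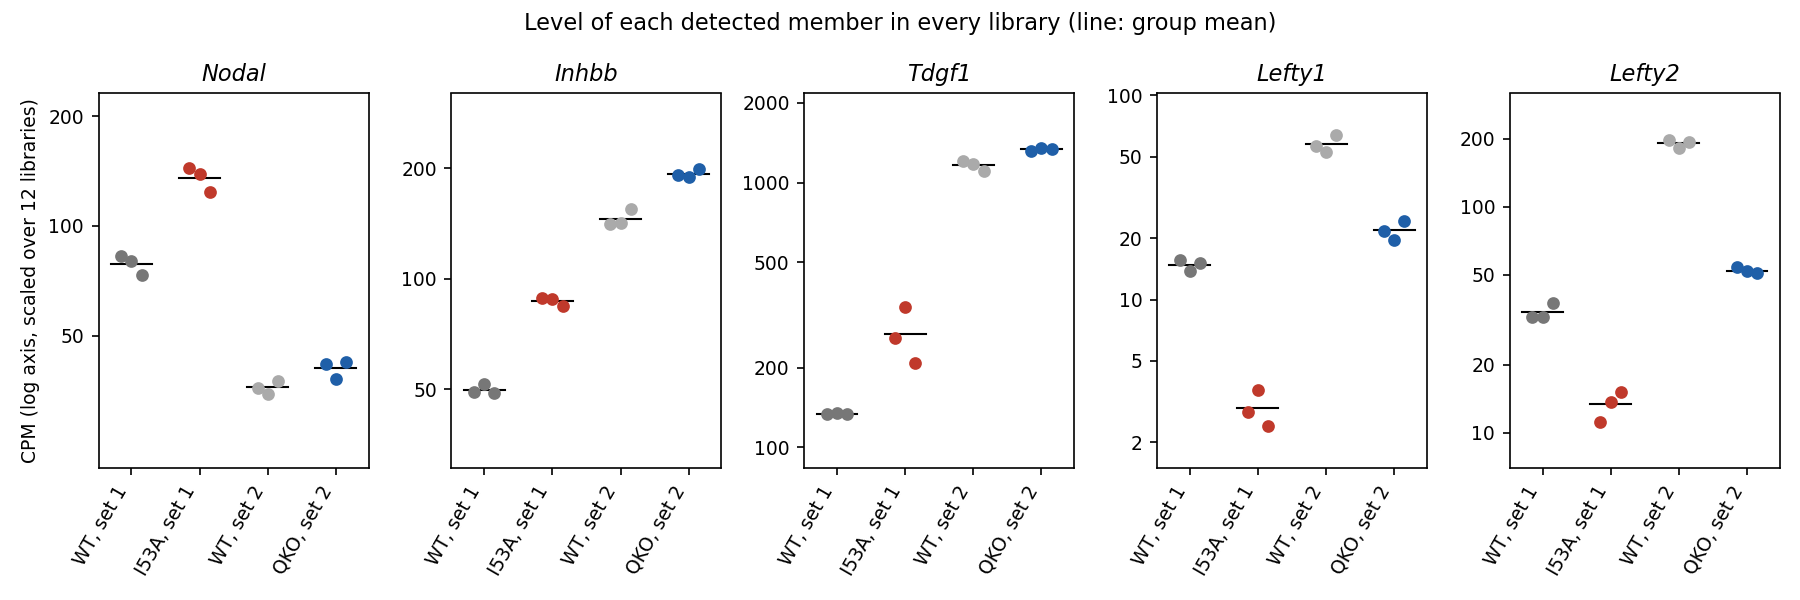
CPM scaled over 12 libraries (y axis, log scale, range set per panel) of the 5 detected members in every library (points) of the 4 groups (x axis), with the group mean as a line. Tdgf1 in set 2 WT (1101 to 1204 CPM) lies above all set 1 libraries, and Lefty1 is lowest in I53A (2.39 to 3.61 CPM).

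Levels were compared between genes as RPKM, reads per kilobase of exon in a library scaled to 1000000, with the same 12-library scaling. In WT cells of set 1 the order was Tdgf1 (69.8 ± 0.388 RPKM), Nodal (37.6 ± 2.36), Lefty2 (13.1 ± 1.09), Inhbb (11.7 ± 0.369) and Lefty1 (8.43 ± 0.518), with no overlap between neighbours. In I53A the order was Tdgf1 (139.8 ± 34.5), Nodal (64.7 ± 5.11), Inhbb (20.5 ± 0.564), Lefty2 (5.12 ± 0.767) and Lefty1 (1.67 ± 0.354), again with no overlap, and Inhbb and Lefty2 had changed places. In WT cells of set 2 it was Tdgf1 (604 ± 28.0), Lefty2 (73.2 ± 3.01), Inhbb (34.2 ± 1.84), Lefty1 (32.8 ± 3.21) and Nodal (17.2 ± 0.701), and Inhbb and Lefty1 overlapped. In the libraries labelled QKO it was Tdgf1 (694 ± 11.01), Inhbb (45.4 ± 1.30), Lefty2 (20.01 ± 0.641), Nodal (19.4 ± 1.15) and Lefty1 (12.4 ± 1.35), and Lefty2 and Nodal overlapped. Tdgf1 thus had the highest RPKM of the members in each group, and Inhba, at 0 in each library, the lowest.

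The balance of inhibitor to ligand RNA fell in both mutants. Lefty1 and Lefty2 together came to 0.538, 0.530 and 0.656 of the Nodal RPKM in the WT libraries of set 1 and to 0.0854, 0.111 and 0.121 in I53A. The mean ratio fell 5.43-fold, from 0.575 ± 0.0704 to 0.106 ± 0.0185, and the groups did not overlap. In set 2 the ratio was 6.27, 6.04 and 6.15 in WT and 1.65, 1.72 and 1.65 in the libraries labelled QKO, a 3.68-fold fall from 6.15 ± 0.116 to 1.67 ± 0.0385. Despite that fall, each QKO library had a higher ratio of Lefty1 plus Lefty2 to Nodal than any library of set 1, WT included. Alignment names differ between the sets, and Lefty1 and Lefty2 are close paralogs. The part of read alignment in this difference between the sets was not tested. The ratio follows from the levels above and was given no test of its own.

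Within the inhibitor pair the balance moved in opposite directions. Lefty2 RPKM was 1.41, 1.59 and 1.67 times that of Lefty1 in WT of set 1 and 2.69, 2.56 and 4.27 times in I53A, with the highest value in replicate 3, where Lefty1 had 32 counts. In set 2 it went from 2.37, 2.32 and 2.03 in WT to 1.69, 1.78 and 1.401 in QKO. The groups were apart in both sets. The agonist side changed less in proportion: Tdgf1 to Nodal was 1.86 ± 0.115 in WT and 2.15 ± 0.451 in I53A, and 35.1 ± 2.82 and 35.8 ± 2.67 in set 2, with overlap in both. Inhbb to Nodal was 0.313 ± 0.0184 in WT and 0.318 ± 0.0170 in I53A, which overlapped, and rose from 1.99 ± 0.0535 to 2.34 ± 0.0970 in set 2 with no overlap.

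**Figure D3:**
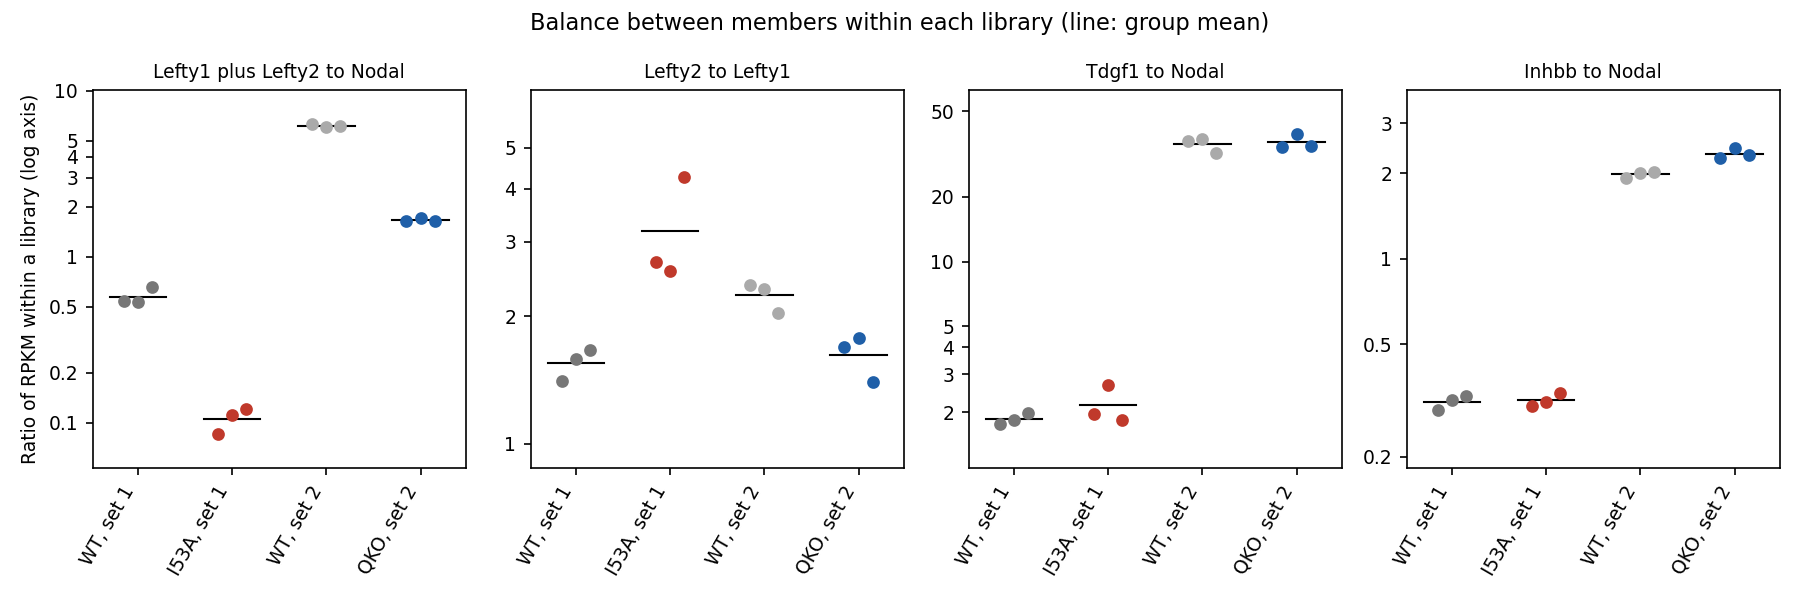
Ratio of RPKM between members within each library (y axis, log scale, range set per panel) in the 4 groups (x axis); points are libraries and lines are means. Lefty1 plus Lefty2 to Nodal drops in both mutants (0.575 to 0.106 in set 1, 6.15 to 1.67 in set 2), while Lefty2 to Lefty1 is higher in I53A and lower in QKO than in WT.

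The receptor list held the activin receptors, which Nodal and activin use, and the TGF-beta receptors, which bind TGF-beta ligands. For the counts of this and the next lists, 18.1% of all tested genes were called higher and 17.4% lower in I53A. In QKO the shares were 28.7% and 29.0%. Of its 7 genes 6 were tested in I53A, 3 higher and 1 lower (median log2 fold change 0.34), and Tgfbr2 and Tgfbr3 of the TGF-beta receptors had the largest increases. The type II TGF-beta receptor gene Tgfbr2 rose by 1.86 ± 0.24 on the log2 scale, Tgfbr3, which encodes the coreceptor betaglycan, by 1.30 ± 0.20, and Acvr2a, an activin type II receptor gene, by 0.41 ± 0.10. Its relative Acvr2b fell by 0.55 ± 0.16. In the libraries labelled QKO 3 of 6 were higher and 3 lower (median -0.04). Tgfbr3 rose by 0.91 ± 0.25, while Tgfbr2 fell by 1.26 ± 0.32, Acvr1b, the main type I receptor gene of activin and Nodal, fell by 0.57 ± 0.06, and Acvr2b fell by 0.39 ± 0.09. Tgfbr2 thus went in opposite directions, with a difference of 3.14 ± 0.37 (edgeR adjusted p = 1.29e-05). Its level was low, at 85 counts over the WT libraries and 312 in I53A, and 112 and 49 in set 2. In I53A the Acvr2a call was lost without WT replicate 2 (adjusted p = 0.0642) or I53A replicate 1 (0.0683), and the Acvr2b call without WT replicate 3 (0.0509), I53A replicate 1 (0.0771) or I53A replicate 2 (0.0949). With the replicate block 2 receptor genes were called lower in I53A.

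The list of other ligands also held Inha, which encodes an antagonist chain, and more distant relatives. Of its 11 genes, 8 were tested in I53A, 0 higher and 3 lower (median -0.66), and Gdf3 was the Nodal-like ligand among the 3. The Nodal-related ligand gene Gdf3 had 59.4 ± 8.20 CPM in WT and 32.0 ± 4.66 CPM in I53A, a log2 fold change of -0.89 ± 0.14 (edgeR adjusted p = 0.00165). Inha, whose product, the inhibin alpha chain, makes inhibin, an antagonist of activin, fell by 1.74 ± 0.35 on the log2 scale. Gdf15, a stress-induced and distant family member that does not use the Nodal receptors, fell by 1.74 ± 0.46. Both were low: over the libraries of a group, Inha had 95 counts in WT and 28 in I53A, and Gdf15 152 and 47. The Gdf15 call was lost without I53A replicate 2 (adjusted p = 0.0674), and with the replicate block 1 gene of the list was called higher. In QKO 6 were tested, 2 higher and 1 lower (median -0.11). Inha fell by 2.18 ± 0.30, from 209 counts over the WT libraries to 49. The TGF-beta genes Tgfb2 and Tgfb1 rose by 1.76 ± 0.43 and 0.36 ± 0.09, Tgfb2 from only 20 counts over the WT libraries to 72. The Tgfb1 call was lost in the 12-library fit (adjusted p = 0.299). Gdf1, a partner of Nodal in heterodimers, had 0 counts in all 12 libraries, and its exons overlap those of Lass1 and Upf1, so its reads could have been lost in counting.

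Among the 12 extracellular regulators and proprotein convertases, the enzymes that cleave Nodal and other precursors, 9 were tested in each comparison. In I53A 3 were higher and 1 lower (median 0.35), and in QKO 2 were higher and 3 lower (median -0.28). Pcsk6, which encodes the convertase PACE4, had 62.0 ± 3.80 CPM in WT and 92.6 ± 3.83 in I53A, a log2 fold change of 0.58 ± 0.08 (edgeR adjusted p = 0.000906). In set 2 it had 92.2 ± 3.37 CPM in WT and 52.8 ± 3.61 in QKO, a log2 fold change of -0.80 ± 0.05 (edgeR adjusted p = 2.18e-18). The convertase gene Furin behaved alike, at 0.44 ± 0.15 in I53A and -0.90 ± 0.10 in QKO. The effects differed by 1.403 ± 0.09 for Pcsk6 and 1.36 ± 0.20 for Furin (edgeR adjusted p = 5.77e-08 and 8.38e-05). Dand5, a secreted antagonist of Nodal, fell by 1.50 ± 0.27 in I53A, and Pcsk7, another convertase gene, rose by 0.35 ± 0.12. In QKO the latent TGF-beta binding protein genes split, as Ltbp3 fell by 0.99 ± 0.13 and Ltbp1 rose by 0.33 ± 0.10. The Furin call in I53A was lost without any 1 of 5 libraries, all but WT replicate 3 (adjusted p up to 0.151), and the Pcsk7 call without any 1 of 5, all but I53A replicate 2 (up to 0.177), and without the low-count filter (0.0678). With the replicate block 5 of the list were called higher and 2 lower. The antagonist gene Cer1 had at most 2 counts in any group.

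Of the 17 SMAD proteins and nuclear partners, all tested, 2 were higher and 5 lower in I53A (median 0.10). In QKO 2 were higher and 11 lower (median -0.25). Over all tested genes 18.1% were higher and 17.4% lower in I53A, and 28.7% and 29.0% in QKO. Foxh1, the DNA-binding partner of Smad2 and Smad3 at Nodal targets, fell by 0.64 ± 0.09 in I53A (from 50.0 ± 1.91 to 32.0 ± 2.25 CPM, edgeR adjusted p = 0.000996). The corepressor gene Tgif2 fell by 0.61 ± 0.10, Zfyve9, which encodes the receptor-SMAD anchor SARA, fell by 0.53 ± 0.09, and Smad3 fell by 0.47 ± 0.11, a call lost without I53A replicate 1 (adjusted p = 0.0515). In QKO the inhibitory Smad6 fell by 0.67 ± 0.13, the SMAD phosphatase gene Ppm1a fell by 0.61 ± 0.04 and Drap1, which encodes an inhibitor of Foxh1, fell by 0.60 ± 0.07. Nedd4l, which encodes a ubiquitin ligase for activated Smad2 and Smad3, rose by 0.96 ± 0.07 in QKO and fell by 0.27 ± 0.07 in I53A. The effects differed by -1.21 ± 0.11 (edgeR adjusted p = 1.17e-06). Its I53A call was lost without WT replicate 1 (edgeR adjusted p = 0.0675) or 2 (0.0759), or without I53A replicate 1 (0.0745) or 2 (0.0654). In QKO the Smad6 call was lost in the 12-library fit (adjusted p = 0.0856). With the replicate block 7 genes of the list were called higher in I53A.

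Genes known to respond to Nodal or its relatives did not move as one. Of 18 listed, 14 were tested in I53A, 6 higher and 1 lower (median 0.68), and 10 in QKO, 4 higher and 5 lower (median -0.06). With the replicate block 10 were called higher in I53A. Eomes, a mesendoderm regulator, was at 0.72 ± 0.16 in I53A and -0.97 ± 0.11 in QKO (difference 1.71 ± 0.18, edgeR adjusted p = 4.23e-06). Otx2, an anterior and epiblast regulator, showed the reverse, at -0.53 ± 0.09 and 1.10 ± 0.07 (difference -1.61 ± 0.12, edgeR adjusted p = 2.14e-07). Foxa2 and Sox17, endoderm regulators, rose by 5.63 ± 0.37 and 5.08 ± 0.28 in I53A, from 5 and 31 counts over the WT libraries to 259 and 1027. Both also stand in the list of primitive endoderm markers. Id3, a target of the BMP branch, rose by 1.09 ± 0.13 and 1.02 ± 0.08.

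For the BMP branch, the other arm of the family, 23 genes were listed. In I53A 16 were tested, 4 higher and 2 lower (median 0.19), where 18.1% and 17.4% of all tested genes were. In QKO 13 were tested, 4 higher and 4 lower (median 0.10), where 28.7% and 29.0% of all tested genes were. With the replicate block 4 were called lower in I53A. The ligand genes Bmp6 and Bmp8b rose by 3.23 ± 0.37 and 1.75 ± 0.27 in I53A, and Bmp2 went from 1 count in WT to 103 (ratio 105, exact 95% counting interval 18.4 to 4176). Twsg1, which encodes a BMP-binding protein, fell by 0.63 ± 0.08 in I53A and fell by 1.27 ± 0.06 in QKO. Also in QKO, Chrd, which encodes the BMP antagonist chordin, fell by 1.30 ± 0.16 and the ligand gene Bmp7 fell by 1.02 ± 0.12, while the receptor gene Bmpr1b rose by 1.21 ± 0.26. Of the list genes named, Acvr2a, Bmp6, Bmp8b, Chrd, Dand5, Drap1, Ltbp3, Pcsk7 and Tgif2 share exon bases with another gene, so part of their reads is uncertain.

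**Figure D4:**
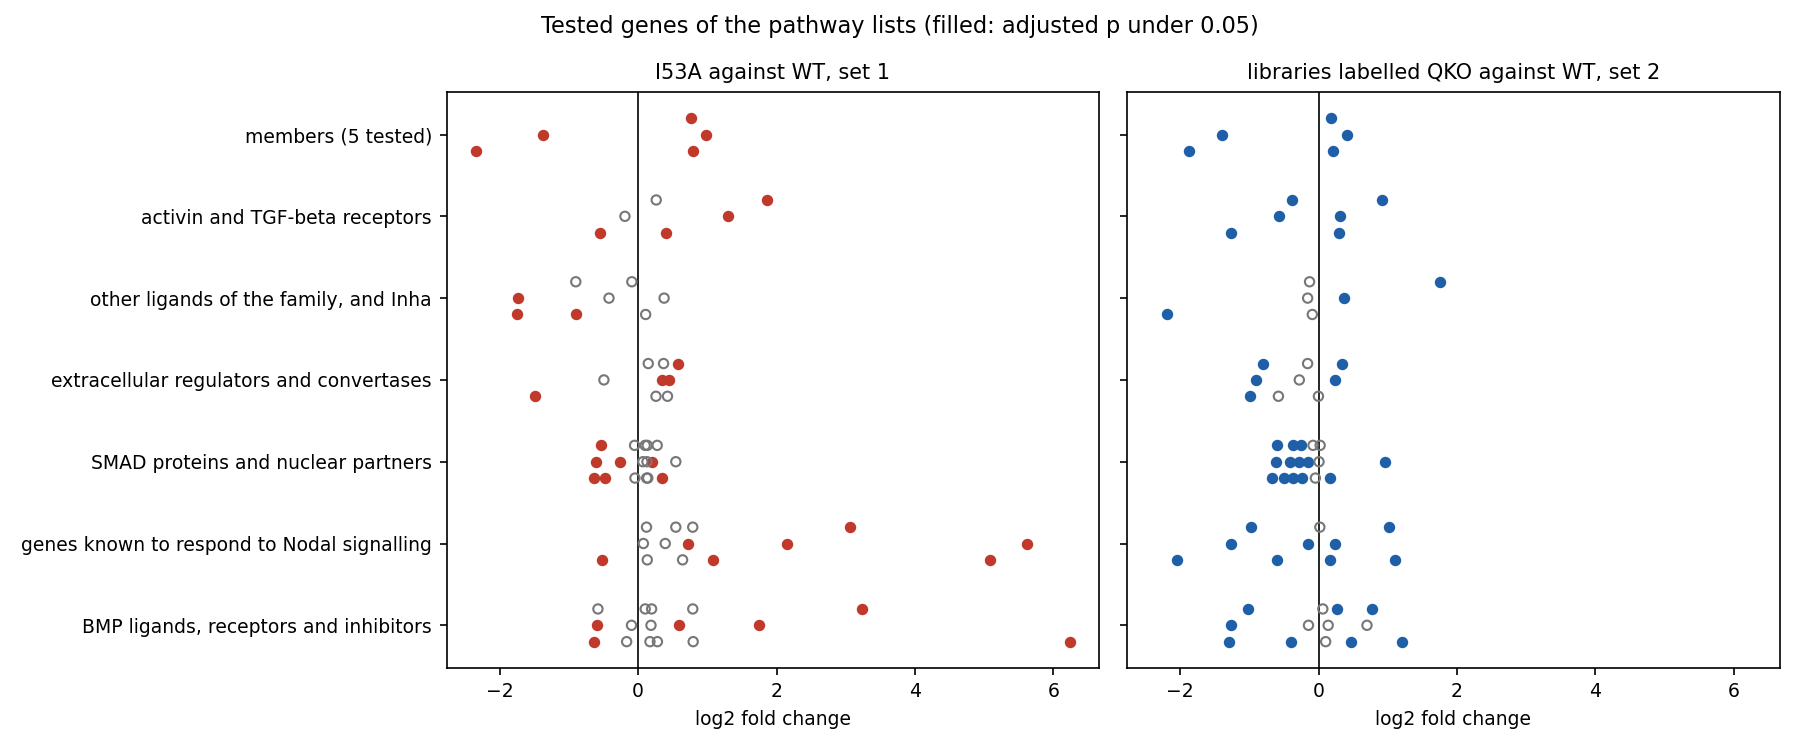
Log2 fold change (x axis, same range in both panels) of each tested gene of the members and of the 6 pathway lists (y axis) in I53A (left) and in libraries labelled QKO (right); filled points passed an adjusted p under 0.05. All 5 tested members are filled on both sides. SMAD proteins and partners lie mostly left of 0 in QKO (11 lower, 2 higher, against 29.0% and 28.7% of all tested genes). The largest value, Bmp2 in I53A, rests on 1 count in WT.

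Markers of other cell types also changed, and some lists went in opposite directions in the mutants. For the counts here and below, 18.1% of all tested genes were called higher and 17.4% lower in I53A. In QKO the shares were 28.7% and 29.0%. In I53A all 12 primitive endoderm markers rose (median log2 fold change 4.78), and their summed level went from 129 to 143 CPM in WT to 2320 to 2390 CPM. In QKO 6 of 10 tested rose and 0 fell, with sums of 116 to 133 CPM in WT and 147 to 155 CPM in QKO. Of 8 ES cell markers 7 were matched by name. Tfcp2l1, which this annotation names Tcfcp2l1, was not matched and is left out here. Of the 7, 4 fell and 0 rose in I53A (sums of 5477 to 6358 CPM in WT and 4448 to 5085 CPM in I53A). In QKO 4 rose and 3 fell (5231 to 5343 and 5976 to 6111 CPM). Pou5f1, Sox2 and Nanog, the defining ES cell genes, were above 316 CPM in each library. Nanog had 1243 to 1415 CPM in WT of set 1 and 975 to 1101 CPM in I53A, and Sox2 491 to 609 and 316 to 376 CPM. Zfp42 had 714 to 743 and 505 to 516 CPM, and Esrrb 1036 to 1125 and 673 to 755 CPM. For these genes every I53A library was below every WT library. The groups overlapped for Klf4 (119 to 237 CPM in WT and 162 to 284 CPM in I53A), Pou5f1 (1145 to 1466 and 1126 to 1442 CPM) and Dppa5a (581 to 955 and 568 to 752 CPM). The part of the primitive endoderm markers in the changes of the members was not tested.

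Of 6 primitive streak and mesoderm markers 4 were tested in I53A, 3 higher and 0 lower (sums of 10.7 to 13.5 CPM in WT and 26.7 to 33.0 CPM in I53A), and 3 in QKO, 0 higher and 2 lower (15.7 to 17.4 and 8.58 to 10.7 CPM). Of 5 anterior visceral endoderm markers, a tissue that makes Lefty1 in the embryo, 3 were tested in I53A, 1 higher and 1 lower (53.7 to 57.3 and 46.5 to 48.6 CPM), and 2 in QKO, 1 higher and 1 lower (33.1 to 37.0 and 59.2 to 65.6 CPM). Most of these sums was Otx2, which the primed epiblast list also holds, at 45.6 to 48.9 CPM in WT of set 1 and 30.1 to 34.9 CPM in I53A. Dkk1 went from 1 count over the WT libraries to 318 in I53A, and Lhx1, not tested, from 3 to 19. Its markers Cer1 and Lhx1 had 0 counts in all set 2 libraries. Of 5 primed epiblast markers 4 were tested in each comparison, with 2 higher and 1 lower in both (243 to 266 and 278 to 296 CPM in set 1, 110 to 111 and 136 to 142 CPM in set 2). All 4 tested trophoblast markers rose in I53A (37.3 to 40.8 and 113 to 121 CPM). In QKO the 3 tested, Eomes, Krt8 and Krt18, fell (56.3 to 66.2 and 28.1 to 30.5 CPM). Krt8 and Krt18 made up most of these sums, and Eomes also stands in the primitive streak and mesoderm list. The other trophoblast markers were too low to be tested in QKO. Over the WT and the QKO libraries of set 2, Cdx2 had 5 and 5 counts, Elf5 3 and 13, and Gata3 6 and 21. Of 9 fibroblast markers, listed for feeder cells, 5 of 5 tested rose in I53A (25.4 to 27.2 and 65.4 to 74.3 CPM) and 3 of 4 in QKO (22.5 to 23.0 and 41.1 to 42.4 CPM). Thy1, Pdgfrb and Col1a1 were detected in WT, with 765, 356 and 116 counts in set 1 and 745, 447 and 86 in set 2. Dcn and Postn had 0 counts in all WT libraries. The part of these markers in the results was not tested either.

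The genes whose pattern was most like each member were found by Pearson correlation of log2 CPM over the 12 libraries, each gene centred on its set. The points share libraries and depth, and the correlation mostly reflects how a gene stood in each mutant. For Nodal they were Pfkl, Myof and Erp29 (r from 0.98 to 0.99), and 456 of 13441 genes searched had r of at least 0.9. For Inhbb they were Parp12, Gca and Colec12 (r = 0.99 each), with 600 genes at that level. Tdgf1 had Atad2b, Fam115c and Ugt2b34 (0.97 to 0.98) and 186 genes, fewer than the other members. Lefty1 was followed by Nhsl1, Utrn and Adam23 (0.99 each, 534 genes) and Lefty2 by Kbtbd11, Dclk2 and Fzd7 (0.99 each, 537 genes). With so many genes this alike, the names describe the pattern and nothing more.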

How the data were processed

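RNA was measured in 12 libraries, in 4 groups of 3. For each library the authors deposited unnormalised read-pair counts per gene name, produced by featureCounts 1.6.3 with the GENCODE annotation of mm9, per the file headers. No strand or multi-mapping option is recorded there. Bowtie2, SAMtools, HISAT2, featureCounts and DESeq2 and the builds mm9 and dm6 are named in the submitters' processing notes. Alignment names of set 1 carry TopHat and unique, those of set 2 neither, per the file headers. RNA was extracted with TRIzol and libraries followed the TruSeq procedure, per the labels' protocols.

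The members and lists were chosen with earlier results of these data known. Counts were tested with edgeR 4.0.16 (quasi-likelihood test with robust dispersion, TMM, filterByExpr, R 4.3.3), with two-sided p-values adjusted by Benjamini-Hochberg over all genes tested. The test was run on simulated counts with the same dispersion for all genes and no replicate effect. That check therefore does not cover a difference such as that of replicate 3 in set 1. SE is the log2 fold change divided by the square root of F. Levels across sets, RPKM and ratios used TMM over 12 libraries. Log2 CPM for likeness used a prior count of 2. Of each list, up to 4 genes per comparison were named, those with the largest change among genes called at 0.05 whose groups were apart and whose higher group reached 1 CPM. Where fewer than 2 qualified, genes of highest CPM would fill the list to 2.

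In set 1, deviations from the group means of same-numbered libraries correlated at 0.316, 0.349 and 0.592 across genes. The labels do not say that the numbers pair samples, so the replicate block was run as an alternative only, in every comparison. Differently numbered libraries among replicates 1 and 2 correlated at 0.268 and 0.315, and those across replicate 3 at -0.464 to -0.407, so the correlations set replicate 3 apart and do not separate numbers 1 and 2. Alternatives were RLE size factors, DESeq2 1.42.0, no filter, each library left out, the replicate block, a fit over 12 libraries, and set 1 without replicate 3. Chromatin libraries of the series were not used here. One gene that the naming rule picked is not reported here.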

Additional observations from a re-analysis of the deposited data

How the results depend on the processing

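All 5 tested members kept their direction under each alternative run. In I53A, in the difference of the effects and between the WT groups, all 5 also stayed past the threshold. In I53A the log2 fold changes ranged from 0.72 to 0.82 for Nodal, 0.77 to 0.80 for Inhbb, 0.79 to 1.14 for Tdgf1, -2.51 to -2.21 for Lefty1 and -1.48 to -1.26 for Lefty2. In QKO they ranged from 0.14 to 0.22 for Nodal, 0.38 to 0.45 for Inhbb, 0.16 to 0.23 for Tdgf1, -1.48 to -1.31 for Lefty1 and -1.91 to -1.84 for Lefty2. The fit over 12 libraries called 3 members in QKO, losing Nodal and Tdgf1, and leaving out 1 library called 4 to 5. Over all genes in I53A, the replicate block called 4371 higher and 4427 lower against 2808 and 2704 without it, and replicates 1 and 2 alone called 4197 and 4146. Leaving out 1 library called 1996 to 3034 higher and 1832 to 2883 lower. In set 2 same-numbered libraries correlated at 0.0147, -0.0218 and 0.0558, so no deviation shared by number was seen. That cannot decide whether the numbers pair samples, which the labels do not say. There the replicate block called 4517 higher and 4563 lower against 4430 and 4473. The replicate block changed no call of a member in either set. Of 684 alternative values of the named list genes, 660 kept their side of the threshold, 24 in 9 results fell short of it, and none changed sign. The cause was not tested. Lefty1 in I53A rests on 32 to 67 counts per library, which limits its precision.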
